A study of Mus musculus with 4 samples.

Results

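Ret, Phox2a, Hand2, Th, Dbh, Elavl4, Prph and Stmn2 are genes of autonomic neurons, the nerve cells of the ganglia that supply the airway wall. They were taken by gene symbol, with no filter on level, and make up 8 of the 18193 genes and 19 of the 45101 probe sets measured. Where a gene had several probe sets, the brightest over all arrays stands for it and the others are given beside it. RNA of mouse embryonic trachea was measured on 4 Affymetrix arrays, 1 for each sample. The labels give 2 samples of an a1H knockout and 2 of wild type, all at embryonic day 16 and all on a C57BL/6 background, and number the samples 1 and 2 within each genotype. The name a1H was read as alpha-1H, the pore of a T-type voltage-gated calcium channel, which Cacna1h encodes. The sources used here do not give the allele or say whether a sample is 1 embryo or a pool, so p-values cover only the spread between these samples, and that spread may be technical.

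Autonomic neurons descend from neural crest cells that migrate along the gut and the blood vessels. Homeodomain factors such as Phox2a and the basic helix-loop-helix factor Hand2 set up their identity, and RET, the signalling receptor for the GDNF family of ligands, promotes their survival and migration. Sympathetic neurons make noradrenaline with tyrosine hydroxylase (Th) and dopamine beta-hydroxylase (Dbh), whereas the intrinsic ganglia of the airway are mainly cholinergic. Elavl4, Prph and Stmn2 encode an RNA-binding protein, an intermediate filament protein and a tubulin-binding protein that mark neurons more widely.

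The upstream sequences of Th and Dbh are shown because these enzymes of noradrenaline synthesis were both brighter on the labelled knockout arrays. Each is the stretch of 250 bases before the annotated start, 5′ to 3′ on the gene's strand, from RefSeq in the build GRCm38.p6. Capitals mark 2 motifs searched on both strands, the palindromic cAMP response element TGACGTCA and the homeodomain core ATTA. The motifs share no bases here.
Th, chr7:142899996-142900245, minus strand: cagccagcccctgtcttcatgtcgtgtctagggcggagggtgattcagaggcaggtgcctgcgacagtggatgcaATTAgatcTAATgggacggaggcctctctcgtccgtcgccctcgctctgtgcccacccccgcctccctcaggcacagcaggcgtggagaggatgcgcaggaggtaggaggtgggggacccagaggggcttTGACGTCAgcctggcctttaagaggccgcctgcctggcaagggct
Dbh, chr2:27165257-27165506, plus strand: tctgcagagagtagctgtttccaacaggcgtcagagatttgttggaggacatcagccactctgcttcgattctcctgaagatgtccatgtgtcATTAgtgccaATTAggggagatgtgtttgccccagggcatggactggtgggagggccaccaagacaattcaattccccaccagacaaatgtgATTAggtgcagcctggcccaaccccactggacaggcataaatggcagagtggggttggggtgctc

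The Th window held 1 cAMP response element, whose first base lay 45 bases before the start, and 2 homeodomain cores. The Dbh window held 3 homeodomain cores, with first bases 157, 147 and 65 bases before the start. Of 32851 windows of this length, 1.55% held the first motif and 54.9% the second, and 17.3% held 3 or more homeodomain cores. RefSeq windows were matched for 6 of the 8 genes. Of the others matched, Hand2 had 5 homeodomain cores, the 4 windows of Elavl4 had 0 to 4, and Phox2a and Prph had 0 of either motif in their windows. A match is only a description of the letters.

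Several measures set the arrays apart before any comparison. Median MAS5 signals were 426 and 320 on the labelled knockout arrays 1 and 2, against 459 and 416 on the wild-type arrays 1 and 2. The 9 hybridisation controls had geometric means of 4744 and 14007 on the labelled knockout arrays, against 4787 and 11598 on the wild-type arrays, so the arrays numbered 2 were brighter in both genotypes. The 27 bacterial control probe sets other than these read at most 42.6 and 84.9 on the labelled knockout arrays and 99.5 and 65.8 on the wild-type arrays, and are used here as a background level. The sources used here do not say whether such transcripts were added to the RNA, which would raise that level. Probe sets of 43 olfactory receptors, which serve smell in the nose, had a 95th percentile of 58.0 and 81.2 on the labelled knockout arrays and 137 and 90.6 on the wild-type arrays. Summed markers of other organs also differed among arrays: thymocyte genes read 25335 and 9053 on the labelled knockout arrays against 4192 and 13155 on the wild-type arrays, and placental genes read 137864 on labelled knockout array 2 against 326 to 640 on the other arrays. Salivary gland genes summed to 14634 and 7392 on the labelled knockout arrays, against 568 and 35854 on the wild-type arrays. Airway epithelium genes separated the genotypes, with sums of 38276 and 42094 on the labelled knockout arrays, against 45855 and 61766 on the wild-type arrays. Of the 8 measured 7 had a negative log2 difference, beside 51.8% of all genes, and 0 passed in limma. Sox2 (-0.60), Scgb1a1 (-0.92), Nkx2-1 (-0.83), Cdh1 (-0.40) and Foxj1 (-0.28), named after their values were seen, were lower without overlap, beside 19.1% of all genes. The part of these tissues in the results below was not tested. Cacna1h itself read 981 and 631 on the labelled knockout arrays, against 630 and 538 on the wild-type arrays. Whether its probes lie in the deleted part was not known, and probes elsewhere in the gene check nothing, so every direction below rests on the labels.

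**Figure D1:**
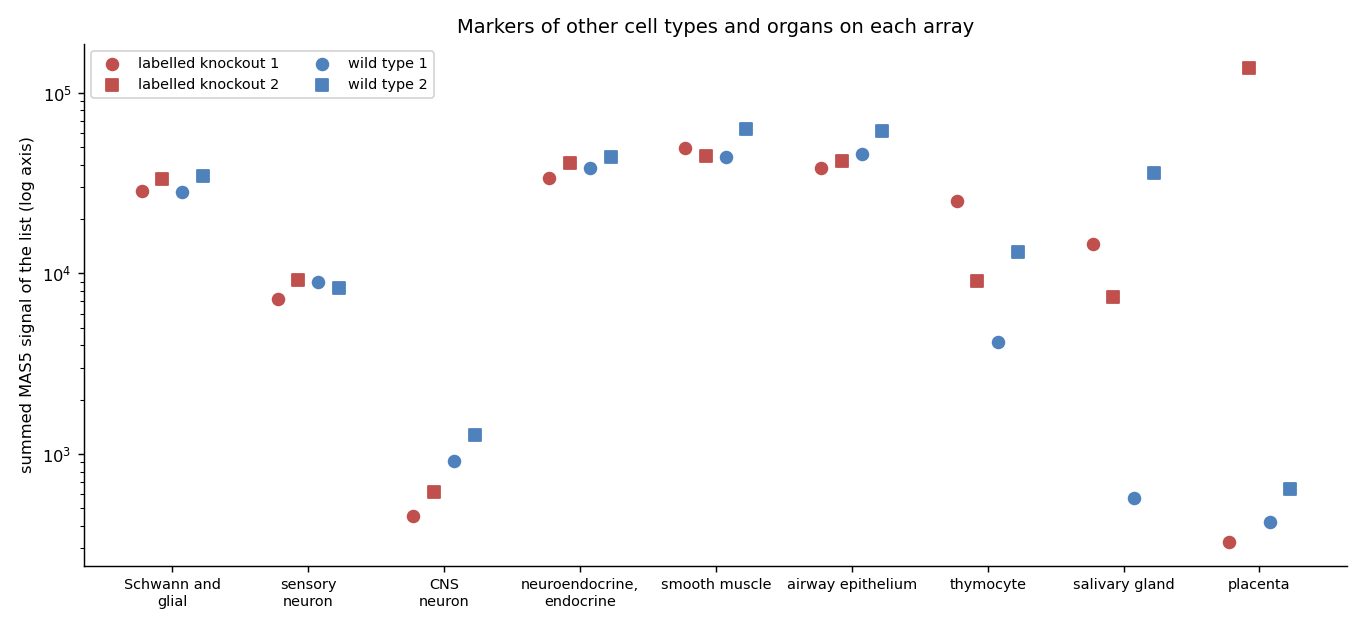
Summed MAS5 signal (log axis) of marker lists on each array, with labelled knockout arrays in red, wild-type arrays in blue, circles for replicate 1 and squares for replicate 2. Glial, sensory, neuroendocrine and smooth muscle markers lay close together. Central nervous system markers, all dim, were at 452 and 618 on the labelled knockout arrays and 918 and 1267 on the wild-type arrays. Airway epithelium markers were at 38276 and 42094 on the labelled knockout arrays and 45855 and 61766 on the wild-type arrays. Thymocyte, salivary gland and placental markers were spread, the last at 137864 on labelled knockout array 2.

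The 8 genes did not move together between the genotypes. On the labelled knockout arrays Th, Dbh and Prph read higher than on both wild-type arrays, Ret and Elavl4 read lower, and Phox2a, Hand2 and Stmn2 overlapped between the groups. None passed the test: in the limma fit over all 18193 genes the Benjamini-Hochberg adjusted p of the members lay between 0.886 and 0.937, and 0 genes, or 0%, were called. Unadjusted p was under 0.05 for Th, which was higher, beside 2.19% of all genes, and for Ret, which was lower, beside 2.47%, or 849 genes (4.67%) in both directions. Groups that do not overlap were found for 35.8% of all genes, 16.8% higher and 19.1% lower, beside 3 higher and 2 lower of the 8 members. Of their 19 probe sets 4 were higher and 6 lower without overlap, beside 11.8% and 25.8% of all probe sets. Taking labelled knockout minus wild type, the log2 difference had a median of 0.45 over the 8 genes and of -0.02 over all genes. The members' median was 0.14 without labelled knockout replicate 2, 0.29 without wild-type replicate 1, 0.19 with the probe sets of a gene averaged, 0.68 with arrays centred on the median and -0.13 above the 75th percentile of level, where 2 members remained. The log2 difference was above 0 for 6 members and 48.2% of all genes, and below 0 for 2 members and 51.8% of all genes. Since the members were chosen with earlier results of these arrays known, these counts are a description. In whole tissue, fewer cells of a type and less RNA per cell cannot be told apart.

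**Figure D2:**
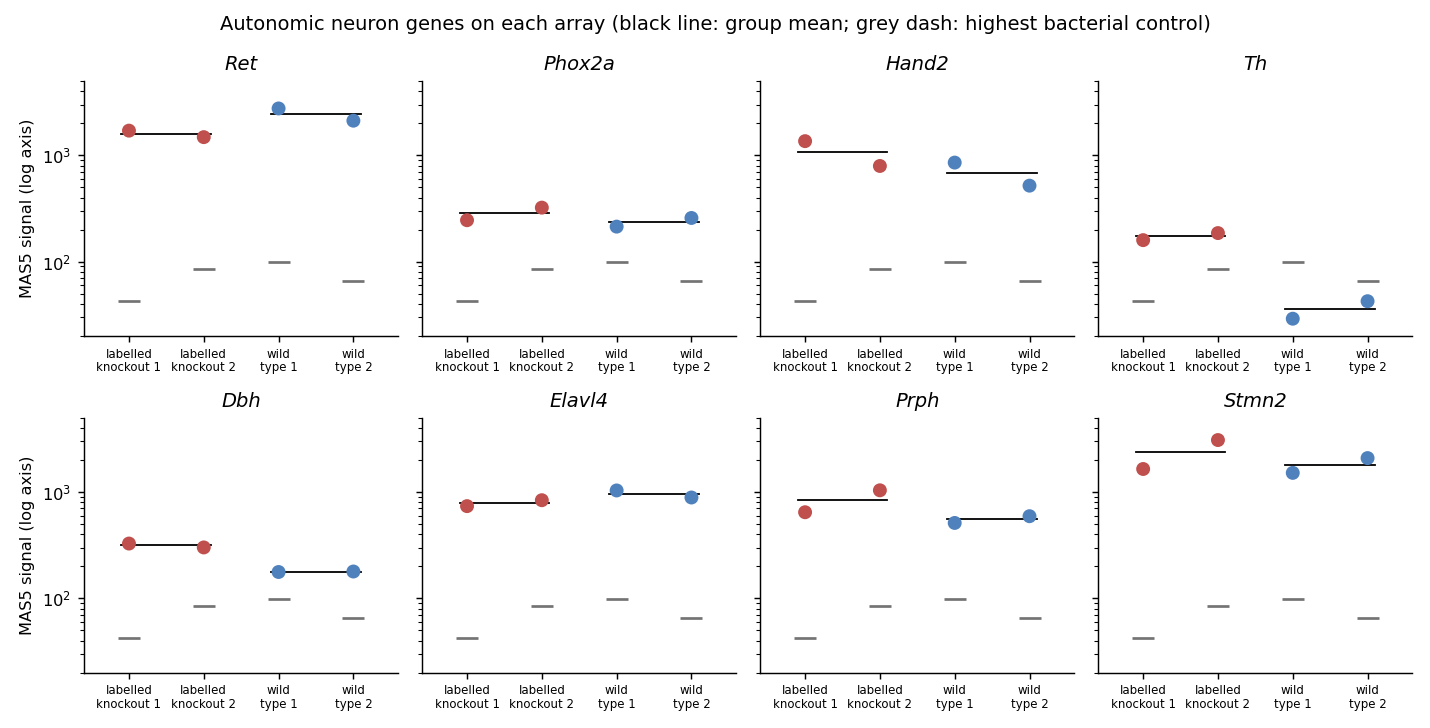
MAS5 signal (log axis) of the brightest probe set of each gene, with labelled knockout arrays in red and wild-type arrays in blue. Black lines are group means of 2 arrays, and grey dashes the highest bacterial control on each array. Th lay below that control on both wild-type arrays and above it on both labelled knockout arrays, and every other gene lay above it on all 4 arrays.

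The receptor Ret, on mouse chromosome 6, read 1707 and 1483 on the labelled knockout arrays, against 2760 and 2118 on the wild-type arrays. Both labelled knockout arrays lay below both wild-type arrays. The means were 1595 ± 158 and 2439 ± 454 (SD, n = 2 each). The log2 difference was -0.60 (SE 0.22), its 95% interval before adjustment was -1.12 to -0.08, and its adjusted p in limma was 0.886. The difference was -0.69 between the arrays numbered 1 and -0.51 between those numbered 2. A second Ret probe set, 1421359_at, was dimmer, at 144 and 155 on the labelled knockout arrays and 184 and 137 on the wild-type arrays, and its groups overlapped. The 2 probe sets of Ret therefore differed in whether the groups separated. The difference was -0.34 with both averaged and -0.37 with arrays centred on the median. The airway epithelium genes described above were lower on the same arrays, and their part in the Ret difference was not tested.

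RET signals through GFRA co-receptors that bind the ligands. Of the 8 ligand and co-receptor genes measured, 4 had a positive and 4 a negative log2 difference, with a median of -0.05, and 0 passed in either direction. Gfra2, the co-receptor that prefers neurturin, read 5253 and 4446 on the labelled knockout arrays, against 6788 and 7260 on the wild-type arrays. Its groups did not overlap, and the log2 difference was -0.54 (SE 0.18). Its adjusted p in limma was 0.886. Of the 4 other Gfra2 probe sets, 1425578_a_at, 1425579_at and 1423007_a_at were also lower without overlap, beside 25.8% of all probe sets. Their log2 differences were -0.80, -0.77 and -1.65, on dimmer signals of at most 439, and for the last of at most 90.2. The remaining probe set, 1459847_x_at, overlapped. Gfra1, the co-receptor that prefers GDNF, read 2006 and 1459 on the labelled knockout arrays and 1784 and 1386 on the wild-type arrays, which overlapped. Its dimmer probe sets separated the groups in opposite directions, 1421973_at lower and 1450440_at higher, with log2 differences of -0.38 and 0.51. The ligands were dim: Gdnf read 77.7 and 113 on the labelled knockout arrays against 172 and 82.3 on the wild-type arrays, Nrtn 142 and 191 against 170 and 116, and Artn 185 and 320 against 163 and 261. Gfra3, the artemin co-receptor, read 226 and 219 on the labelled knockout arrays and 338 and 76.7 on the wild-type arrays. None of these 3 ligands, nor Gfra3, separated the groups. Pspn, the persephin ligand, did, at 54.6 and 14.2 on the labelled knockout arrays against 145 and 87.8 on the wild-type arrays, on signals near the background level, and is named after its values were seen. Its log2 difference was -1.49, with an adjusted p of 0.886 in limma.

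The homeodomain factor Phox2a, which activates Dbh in sympathetic cells, read 245 and 322 on the labelled knockout arrays, against 213 and 257 on the wild-type arrays. The groups overlapped, and the means of 284 ± 54.3 and 235 ± 31.1 (SD, n = 2 each) differed by 0.25 on the log2 scale (SE 0.40). Its interval, -0.70 to 1.20, spans differences in either direction. With 1 array left out the difference lay between 0.06 and 0.43, and it was 0.53 after quantile normalization, 0.48 with arrays centred on the median and 0.12 with arrays centred on the hybridisation controls. Hand2, which is also expressed in limb, heart and pharyngeal mesenchyme, read 1360 and 794 on the labelled knockout arrays, against 854 and 518 on the wild-type arrays. Within each genotype the array numbered 1 was the brighter, and the groups overlapped in the pool, while the log2 difference was 0.66 between the arrays numbered 1 and 0.60 between those numbered 2. Pooled, it was 0.63 (SE 0.38), with a range of 0.25 to 1.01 when 1 array was left out, and it was 0.22 with the probe sets averaged. A dimmer Hand2 probe set, 1422221_at, read 389 and 273 on the labelled knockout arrays and 296 and 329 on the wild-type arrays, a log2 difference of 0.06, and another, 1443854_at, stayed at or below 16.2 on all 4 arrays.

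Other transcription factors of the lineage showed no common direction. Of 12 measured, 5 had a positive and 7 a negative log2 difference, with a median of -0.09, and 0 passed. Gata2, a zinc finger factor of sympathetic precursors and of blood and endothelium, read 1555 and 1861 on the labelled knockout arrays, against 1781 and 2673 on the wild-type arrays. Isl1, a LIM homeodomain factor of autonomic and sensory neurons, read 5508 and 6872 on the labelled knockout arrays and 7320 and 6865 on the wild-type arrays. Sox11, a factor of immature neurons and mesenchyme, differed by 0.54 on the log2 scale at its brightest probe set, with values from -0.53 to 0.16 on 5 others.

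Th, the rate-limiting enzyme of catecholamine synthesis, read 159 and 186 on the labelled knockout arrays, against 29.0 and 42.4 on the wild-type arrays. The wild-type signals lay within the range of the bacterial controls, which reached 99.5 and 65.8 there, and the labelled knockout signals lay above theirs. With that level as the floor, the bound on Th was 2.12-fold higher in labelled knockout. This bound is a value from 2 arrays a group, not a confidence limit, and depends on the floor chosen. The olfactory receptor 95th percentiles on the wild-type arrays, 137 and 90.6, were higher than the bacterial controls and would lower it. The fitted log2 difference of 1.87 was taken against the low wild-type signals of Th, so its size is not read. Its adjusted p in limma was 0.886. The median over the members is the same with Th at its bound. Th is represented by 1 probe set, 1420546_at, and its level was below that of the median probe set, where MAS5 values are noisy.

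Dbh, which converts dopamine to noradrenaline, read 327 and 301 on the labelled knockout arrays, against 177 and 179 on the wild-type arrays. The means of 314 ± 18.7 and 178 ± 1.34 (SD, n = 2 each) differed by 0.77 on the log2 scale (SE 0.39). The adjusted p of Dbh in limma was 0.886. Its brightest probe set is of the x_at kind, which can bind more than 1 transcript. The probe set 1450670_at read 258 and 309 on the labelled knockout arrays, against 138 and 203 on the wild-type arrays, again without overlap and with a log2 difference of 0.70. The remaining probe set, 1447592_at, overlapped, at 165 and 274 on the labelled knockout arrays and 141 and 175 on the wild-type arrays. Both enzymes were thus brighter on the labelled knockout arrays within each replicate number, on dim probe sets.

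The other genes that make, store and take up noradrenaline did not follow Th and Dbh as a list. Of 10 measured, 5 had a positive and 5 a negative log2 difference, with a median of -0.01, and 0 passed. Ddc, the decarboxylase between Th and Dbh in the pathway, read 5762 and 5782 on the labelled knockout arrays, against 4266 and 4166 on the wild-type arrays, a log2 difference of 0.45 (SE 0.17). A dim second Ddc probe set, 1430591_at, overlapped. Slc18a1, a vesicular monoamine transporter of endocrine cells, read 349 and 404 on the labelled knockout arrays, against 600 and 623 on the wild-type arrays. Slc6a2, which takes noradrenaline back up, read 850 and 1719 on the labelled knockout arrays and 444 and 1274 on the wild-type arrays, and is named after its values were seen. Its groups overlapped, with a log2 difference of 0.67 (SE 0.55), and the difference was 0.91 between the arrays numbered 1 and 0.43 between those numbered 2. Slc18a2, the neuronal vesicular transporter, overlapped at 899 and 768 on the labelled knockout arrays and 874 and 1069 on the wild-type arrays. The groups also overlapped for Npy, a co-transmitter of sympathetic neurons, at 285 and 379 on the labelled knockout arrays and 475 and 342 on the wild-type arrays. Maob, a monoamine oxidase, had a log2 difference of 0.45 and Cyb561, the electron donor of secretory vesicles, -0.24, both without overlap.

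Genes that define cholinergic neurons were close to background. Chat, the acetylcholine synthase, read 20.2 and 12.0 on the labelled knockout arrays and 11.4 and 3.74 on the wild-type arrays, within the range of the bacterial controls. The acetylcholine vesicle transporter Slc18a3 read 54.0 and 13.0 on the labelled knockout arrays and 22.9 and 69.9 on the wild-type arrays, and the choline transporter Slc5a7 read 43.3 and 3.71 against 49.1 and 80.7. These 3 signals give no usable difference. Of 11 cholinergic genes measured 3 were at or above the median level, namely Ache, which degrades acetylcholine, the nitric oxide synthase Nos1 and the neuropeptide Vip. Ache read 621 and 685 on the labelled knockout arrays against 553 and 386 on the wild-type arrays, Nos1 read 612 and 408 against 662 and 545, and Vip read 466 and 389 against 582 and 354. Of these 3, Ache alone separated the groups, with a log2 difference of 0.48 and an adjusted limma p of 0.886. The cholinergic part of the airway ganglia could therefore not be checked through its defining enzyme on these arrays.

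**Figure D3:**
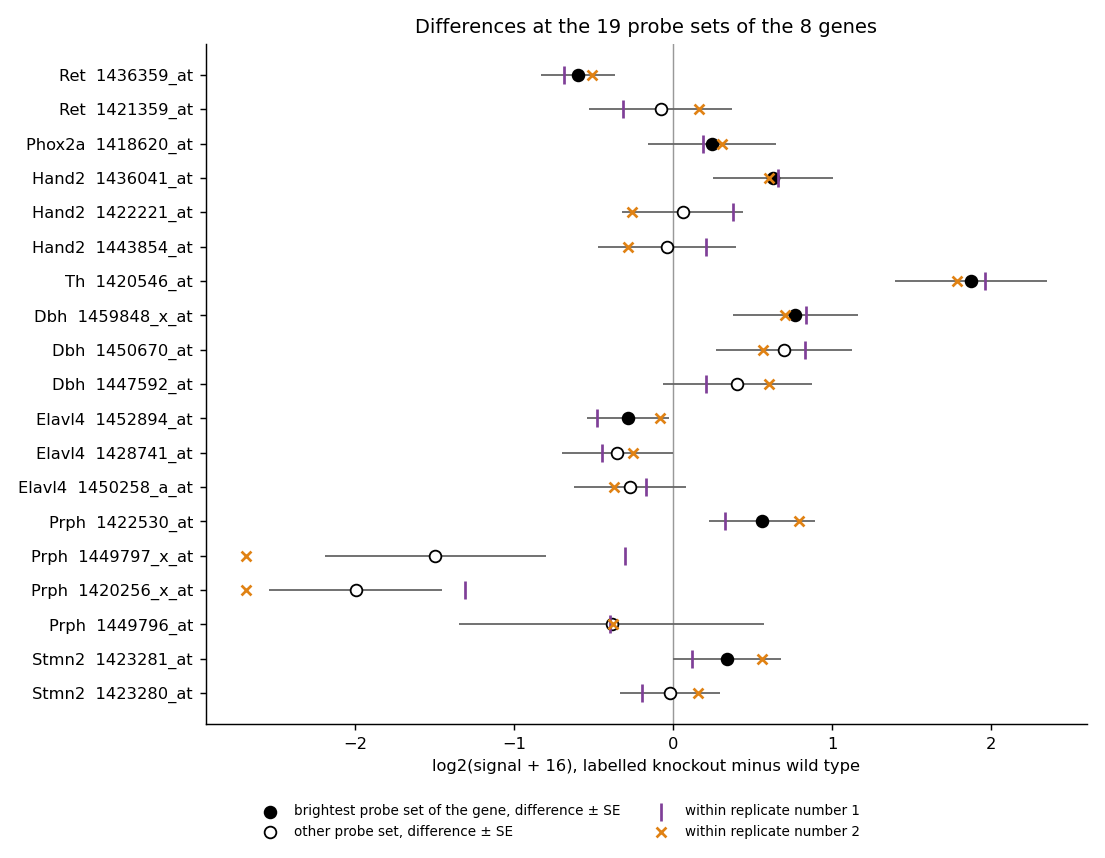
Difference of log2(signal + 16), labelled knockout minus wild type, at each of the 19 probe sets. Filled circles are the brightest probe set of a gene and open circles the others, with bars of 1 SE from limma, and the purple and orange marks are the differences within replicate numbers 1 and 2. The 3 Dbh probe sets lay right of 0 and the 3 Elavl4 probe sets left of it, whereas those of Prph lay on both sides.

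Elavl4, a neuronal RNA-binding protein, read 737 and 838 on the labelled knockout arrays, against 1035 and 888 on the wild-type arrays. The groups did not overlap, but the closest arrays, at 838 and 888, were near each other. Its means of 787 ± 71.3 and 961 ± 104 (SD, n = 2 each) differed by -0.28 on the log2 scale (SE 0.25). The other probe sets, 1428741_at and 1450258_a_at, had log2 differences of -0.35 and -0.27, also without overlap, beside 25.8% of all probe sets lower in this way. With arrays centred on the median the Elavl4 difference was -0.05, and without wild-type replicate 1 it was -0.17. All 3 thus had the same direction, and none had an unadjusted p under 0.05.

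Prph, the peripherin of peripheral neurons, read 645 and 1038 on the labelled knockout arrays, against 512 and 592 on the wild-type arrays. Both labelled knockout arrays were higher, and the log2 difference of 0.56 (SE 0.33) was made of 0.33 between the arrays numbered 1 and 0.79 between those numbered 2. Its 3 dim probe sets went the other way. They read 5.07 to 78.9 on the labelled knockout arrays and 11.4 to 132 on the wild-type arrays, near the background level, with log2 differences between -2.00 and -0.39. The difference at the brightest probe set was 0.22 without labelled knockout replicate 2 and 0.90 without labelled knockout replicate 1. The mean over the 4 probe sets had the opposite sign, -0.83.

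Stmn2, which regulates microtubules in growth cones, read 1647 and 3083 on the labelled knockout arrays, against 1514 and 2086 on the wild-type arrays. The arrays numbered 2 were the brighter in both genotypes, and the groups overlapped. The log2 difference of 0.34 (SE 0.33) was -0.11 without labelled knockout replicate 2, the array with placental transcripts, and 0.79 without labelled knockout replicate 1. It was 0.11 and 0.57 without wild-type replicates 1 and 2, 0.57 with arrays centred on the median, 0.21 with arrays centred on the hybridisation controls and 0.16 with both probe sets averaged. The other probe set of Stmn2, 1423280_at, read 1092 and 1843 on the labelled knockout arrays and 1253 and 1653 on the wild-type arrays, a log2 difference of -0.02. Stmn2 was thus not separated by genotype on either probe set.

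Among 26 other genes common to neurons, 11 had a positive and 15 a negative log2 difference, with a median of -0.06, and 0 passed. The groups did not overlap for 6 that were lower and for 1 that was higher, the neurofilament gene Nefm, which was dim and is named after its values were seen, beside 19.1% lower and 16.8% higher of all genes. Scg2, a granin of secretory vesicles, read 677 and 805 on the labelled knockout arrays, against 1434 and 1054 on the wild-type arrays, a log2 difference of -0.72. Snap25, a protein of synaptic vesicle fusion, read 1190 and 1489 on the labelled knockout arrays, against 1752 and 1975 on the wild-type arrays. Both Snap25 probe sets were lower without overlap, beside 25.8% of all probe sets. Elavl3, a relative of Elavl4, read 358 and 316 on the labelled knockout arrays, against 512 and 493 on the wild-type arrays, and Scg3, another granin, had a log2 difference of -0.53. Tubb3, the neuronal beta tubulin, overlapped at 592 and 1413 on the labelled knockout arrays and 506 and 756 on the wild-type arrays, as did Gap43, a growth cone protein, at 883 and 1210 against 687 and 1128. The median of the pan-neuronal list was -0.24 between the arrays numbered 1 and -0.04 between those numbered 2.

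**Figure D4:**
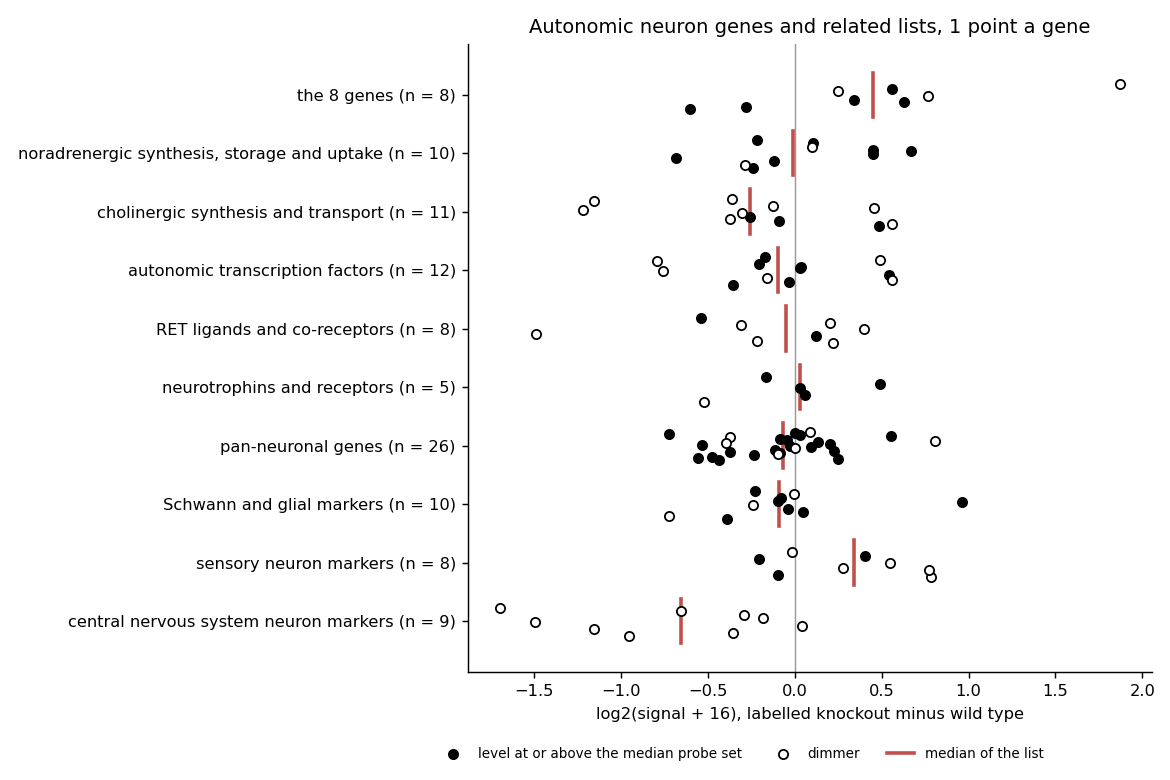
Difference of log2(signal + 16), labelled knockout minus wild type, for each gene of the 8 and of related lists. Filled points have a level at or above the median probe set, open points are dimmer, and red lines are list medians. The median was 0.45 for the 8 genes, 0.34 for sensory neuron markers, -0.65 for central nervous system markers and between -0.26 and 0.03 for the other lists plotted.

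Neurotrophins sustain these neurons, and Schwann and satellite glia accompany them. Of 5 neurotrophin and receptor genes measured, 3 had a positive and 2 a negative log2 difference, with a median of 0.03, and 0 passed. Ngfr, the low-affinity neurotrophin receptor of neurons and Schwann cells, read 962 and 1591 on the labelled knockout arrays, against 847 and 904 on the wild-type arrays. However, 2 dim Ngfr probe sets were lower without overlap, beside 25.8% of all probe sets. Of 10 glial genes measured, 2 had a positive and 8 a negative log2 difference, with a median of -0.09, and 0 passed. Sox10, a factor of crest-derived glia and precursors, read 1268 and 2238 on the labelled knockout arrays, against 694 and 1060 on the wild-type arrays. Erbb3, the neuregulin receptor of glia, overlapped at 5335 and 7543 on the labelled knockout arrays and 6282 and 7332 on the wild-type arrays. Summed glial signal was 28581 and 33537 on the labelled knockout arrays, against 28231 and 34446 on the wild-type arrays.

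Within replicate numbers, each of the 8 members kept its sign, 6 higher and 2 lower in labelled knockout, where 59.4% of all genes kept theirs. The median over the members was 0.26 between the arrays numbered 1 and 0.58 between those numbered 2. RNA length was judged by the 3′ over the 5′ signal of the actin and Gapdh controls. Actin gave 1.90 and 1.97 on the labelled knockout arrays, against 1.69 and 1.66 on the wild-type arrays. Gapdh overlapped, at 1.36 and 1.61 on the labelled knockout arrays and 1.26 and 1.40 on the wild-type arrays. The part of RNA length in these differences was not tested. The level pattern of Ret, and that of the members' mean, was shared by genes of other kinds. The closest to Ret over the 4 arrays, by the root mean square difference of centred log2 values, were Pcdhb20 at 0.0044, Sox2 at 0.022, Ccdc149 at 0.041, Hivep1 at 0.042 and Noc3l at 0.045, out of 6146 genes compared. The closest to the mean of the 8 members were Dut at 0.0073, Ubl7 at 0.0095, Supt5 at 0.0097, Cisd1 at 0.012 and Cuedc2 at 0.019. Th weighs most in that mean, with a range over the arrays of 2.16 on the log2 scale, against 0.52 for the mean. Its wild-type signals lay within the background level, so this likeness does not describe the 8 genes evenly. With 4 arrays, many genes share a pattern.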

How the data were processed

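Tracheal RNA of 4 mouse embryo samples was hybridised to 1 array each. Per the labels' protocols, Trizol-extracted RNA was SPIA-amplified with an Ovation Pico kit and biotinylated. The authors deposited linear intensities, 1 a probe set and array, from MAS5 (per the submitters' processing notes), whose version and settings the sources used here do not give. Trimmed of 2% at either end, each array had a mean of 1500, which looks like scaling to a common target. MAS5 is noisy for dim probe sets, and amplification favours 3′ ends. No detection calls were used, and only 2 arrays a group limit the precision.

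Groups and replicate numbers were read from sample titles. Platform annotation gave exactly 1 gene to 34945 probe sets, several to 932 and none to 9160, and 64 controls were dropped. Gene identifiers gave current symbols from RefSeq (GRCm38.p6). Each of the 18193 genes is represented by its brightest probe set on the mean log2(signal + 16) scale, with no filter, since the members were taken without one. The deposited intensities were fitted on that log2 scale by genotype alone, using limma 3.58.1 (R 4.3.3) with a trended eBayes prior, and p-values were adjusted by Benjamini-Hochberg at 0.05 over all genes. This scale understates differences of dim genes. Values of single probe sets come from the same fit over all probe sets that are not controls, and related lists are described by counts and medians. For the fold value of Th against background, each wild-type signal was replaced by the highest bacterial control on its array where that was higher. Labelled knockout and wild type were then compared as means of log2 signals.

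Exact permutation of 2 against 2 samples was not used, since its smallest two-sided p is 0.333. Named genes follow a rule: the members, the targeted gene, a set of related genes named whatever their values, the genes of each list of related neuronal genes at or above the median level (a signal of 397) with the smallest unadjusted p, at most 4 each, and the brightest markers of other cells. Genes said to be named after their values were seen fall outside it. The members and lists were chosen with earlier results of these data known. Likeness of pattern used genes at or above the median level with a range of at least 0.5 on the log2 scale. The scripts were tested on simulated data. Alternatives were the pseudocount (1 or 64), level filters at the median and 75th percentile, 2 between-array scalings, no intensity trend, the mean of all probe sets, the replicate block and each array left out. Scaling to the hybridisation controls, and the block with the median filter, were added after seeing the data. Figures were drawn with matplotlib 3.10.9.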

Additional observations from a re-analysis of the deposited data

How the results depend on the processing

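None of the 8 genes passed the threshold under any alternative run. With all 4 arrays the smallest adjusted limma p was 0.411, for Ret and Hand2 under the median filter with the replicate block. The level filters, the fit without intensity trend and the replicate block leave each log2 difference as it was, so its sign could not change there. Of 108 values, those included, 106 kept the sign of the difference. The exceptions were Prph with the mean of all probe sets (-0.83) and Stmn2 without labelled knockout replicate 2 (-0.11, against 0.79 without the other labelled knockout array). The median log2 difference of the members, 0.45, was -0.13 above the 75th percentile of level, where only Ret and Stmn2 remained of the members, 0.68 with arrays centred on the median and 0.19 when probe sets of a gene were averaged. It ranged from 0.14 (without labelled knockout replicate 2) to 0.57 (without labelled knockout replicate 1) when 1 array was left out. Centring on the median moved the median of all genes from -0.02 to 0.21, and centring on the hybridisation controls moved it to -0.15. Both shift the difference of every gene by the same amount. The distance of the members above the median of all genes, 0.47, was therefore fixed and is no check. The count of genes past the threshold was 0 under every other setting, and ranged from 0 to 136 with 1 array left out: leaving out labelled knockout replicate 1 gave 136, leaving out its replicate 2 gave 3, and leaving out either wild-type array gave 0. In these fits 1 genotype had a lone array, assumed to vary like the other genotype's pair, and the 136 rest on the labelled knockout array with placental transcripts. Beside the count of 0 in the limma fit, 849 genes had an unadjusted p under 0.05. The labels do not say that a replicate number marks a batch. Deviations from the group means of arrays with the same number correlated at 0.32 across 11694 genes, which are not independent replicates. With the replicate block 0 genes passed. The median of the members was again 0.45, which a block cannot change in this balanced design. Dim probe sets, among them those of Th, Dbh and Phox2a, limit what the arrays can show.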

Other observations

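Markers of other neurons and endocrine cells that a dissected trachea can hold were described by the same values. Of 8 sensory neuron markers measured, 5 had a positive and 3 a negative log2 difference, labelled knockout minus wild type, with a median of 0.34, and 0 passed in limma. The median was -0.05 between the arrays numbered 1 and 0.68 between those numbered 2. Avil, P2rx3 and Tac1, named after their values were seen, were higher without overlap, beside 16.8% of all genes. Avil, an actin-binding protein of sensory neurons, read 276 and 243 on the labelled knockout arrays, against 136 and 152 on the wild-type arrays, and P2rx3, an ATP-gated channel, read 220 and 262 against 170 and 105. Tac1, which encodes substance P, read 584 and 667 on the labelled knockout arrays, against 551 and 396 on the wild-type arrays. The dim second probe set of Tac1, 1431883_at, was lower without overlap. It read 18.1 and 14.8 on the labelled knockout arrays, against 46.9 and 41.8 on the wild-type arrays. The summed sensory signal, most of it from Isl1, overlapped, at 7183 and 9160 on the labelled knockout arrays and 8963 and 8323 on the wild-type arrays. The 9 central nervous system markers measured were all dimmer than the median probe set, with many signals near the background level. Their median log2 difference was -0.65, and they summed to 452 and 618 on the labelled knockout arrays, against 918 and 1267 on the wild-type arrays. Of that 1267, Tbr1 and Neurod6, named after their values were seen, gave 481 and 226. Direction also varied with level. A positive log2 difference was found for 6540 of the 11694 genes at or above the median level, but for 8765 of all 18193. Dimmer genes thus leaned lower in labelled knockout, and the part of level in these markers was not tested.

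Of 10 neuroendocrine and endocrine markers measured, 3 had a positive and 7 a negative log2 difference, and 0 passed. Pth, the parathyroid hormone gene, read 13924 and 19619 on the labelled knockout arrays and 15566 and 22213 on the wild-type arrays, so parathyroid transcripts were bright on all 4 arrays. Chga, the chromogranin of endocrine and sympathoadrenal cells, read 4653 and 6302 on the labelled knockout arrays and 4166 and 5817 on the wild-type arrays. The groups overlapped for Pth and for Chga. Scg5, a secretory granule protein, and Ccn3, a matricellular protein, are named after their values were seen. Scg5 read 1168 and 1414 on the labelled knockout arrays, against 2653 and 2664 on the wild-type arrays, a log2 difference of -1.04 (SE 0.20) with an adjusted limma p of 0.886. Ccn3 read 5531 and 4728 on the labelled knockout arrays, against 7292 and 6655 on the wild-type arrays, a log2 difference of -0.44. Both were lower without overlap, beside 19.1% of all genes.

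Of 11 enteric neuron and esophagus markers measured, 2 had a positive and 9 a negative log2 difference, with a median of -0.24, and 0 passed. Cartpt, a neuropeptide gene named after its values were seen, was lower without overlap, at 403 and 446 on the labelled knockout arrays against 536 and 684 on the wild-type arrays. Ednrb, the endothelin receptor of enteric and crest precursors, read 10062 and 8938 on the labelled knockout arrays, against 9961 and 12888 on the wild-type arrays, and overlapped.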
